A study of Mus musculus with 18 samples.

Results

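C/D box small nucleolar RNAs (snoRNAs), most of which act on ribosomal RNA, were examined in small RNA libraries of sorted mouse brain cells. They were taken as all features of type snoRNA whose name starts with Snord, without the tandem arrays Snord113, Snord114, Snord115 and Snord116 and the imprinted Snord64, which are not known to guide rRNA. Copies that carry the same number were summed, so that 74 annotated transcripts gave 64 C/D snoRNAs, of 203513 features in the table and 86922 with a count. All 64 had a count in each of the 18 libraries and all entered every test. On the lists of targets and processing roles used here, 17 of the 64 have no entry, among them Snord123, Snord85 and Snord89.

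The libraries came from brains of untreated C57BL/6 mice at 10 months, either wild type (WT) or with the Atxn2-CAG100 knock-in on both alleles (KIN), an expanded CAG repeat in the endogenous Atxn2 gene that models spinocerebellar ataxia type 2 and acts in every cell that expresses Atxn2. Each of 3 cell fractions was sampled with 3 WT and 3 KIN libraries. Magnetic beads against CD11b took microglia out of the dissociated brain, beads against ACSA-2 then took astrocytes, and neurons were the flow-through once the remaining non-neuronal and endothelial cells had been bound. By the study's methods the 3 fractions were taken in turn from the same brain, so that libraries of different fractions share animals. The labels give a biological replicate number but not which brain it marks. The p-values below treat the libraries as independent and measure the spread between them, and animals shared between fractions are not modelled.

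A C/D box snoRNA folds so that its box C near the 5′ end and its box D near the 3′ end lie together and bind Snu13, Nop56, Nop58 and the methyltransferase fibrillarin. A short antisense stretch just upstream of box D, or of an internal copy of it, pairs with a target RNA, and the target nucleotide opposite the fifth base upstream of the box receives a 2′-O-methyl group. Most members guide methylation of 18S or 28S rRNA, a few guide the spliceosomal U6 RNA, and U8 (Snord118), U13 (Snord13), U14 (Snord14) and U22 (Snord22) are needed for cleavage or other maturation steps of the rRNA precursor. In mouse nearly all are released from introns of a host gene, often one for a ribosomal protein, a translation factor or a nucleolar protein, or a long noncoding RNA such as Gas5 or an Snhg gene.

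The annotated sequences below are those of the most abundant snoRNA and of members that differed between fractions, read from the GENCODE transcripts of GRCm39, 5′ to 3′ with T for U. Capitals mark box C (TGATGA, searched in the first 20 bases of the transcript strand) and box D (CTGA, searched in the last 15 bases).
Snord68: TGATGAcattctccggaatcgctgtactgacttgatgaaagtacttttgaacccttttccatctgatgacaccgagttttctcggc
Snord17: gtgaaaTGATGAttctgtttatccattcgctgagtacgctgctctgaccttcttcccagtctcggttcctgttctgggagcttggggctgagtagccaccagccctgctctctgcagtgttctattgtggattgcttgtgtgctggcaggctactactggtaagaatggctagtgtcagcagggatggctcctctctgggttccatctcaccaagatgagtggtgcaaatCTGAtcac
Snord107: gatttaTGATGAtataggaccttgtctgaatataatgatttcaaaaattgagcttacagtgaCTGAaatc
Snord123: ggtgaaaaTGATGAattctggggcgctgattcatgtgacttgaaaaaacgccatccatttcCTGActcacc
Snord67: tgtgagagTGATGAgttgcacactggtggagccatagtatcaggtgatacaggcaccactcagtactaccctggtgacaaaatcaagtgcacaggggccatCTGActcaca
Snord65: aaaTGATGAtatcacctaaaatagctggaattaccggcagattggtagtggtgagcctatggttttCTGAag
Snord89: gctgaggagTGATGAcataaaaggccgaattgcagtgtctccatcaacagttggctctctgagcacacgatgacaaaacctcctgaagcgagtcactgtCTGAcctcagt
Snord96a: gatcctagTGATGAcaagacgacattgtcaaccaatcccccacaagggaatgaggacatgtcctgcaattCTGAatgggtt
Snord53: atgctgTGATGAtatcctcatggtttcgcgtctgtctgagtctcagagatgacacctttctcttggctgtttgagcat
Snord92: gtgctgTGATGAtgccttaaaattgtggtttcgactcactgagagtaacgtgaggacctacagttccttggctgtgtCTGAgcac

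Snord68 lies within Rpl13 at chr8:123829777-123829862 (plus strand), Snord17 within the sorting nexin gene Snx5 at chr2:144107899-144108136 (minus strand), and Snord107 within the imprinted Snrpn gene at chr7:59630624-59630693 (minus strand). Snord123 lies within the noncoding Snhg18 at chr15:32241999-32242069 (minus strand) and Snord67 within Ckap5 at chr2:91426415-91426525 (plus strand). Snord65 lies within the noncoding 2410006H16Rik at chr11:62495341-62495412 (plus strand) and Snord89 within the noncoding Gm15832 at chr1:39587826-39587935 (minus strand). Snord96a lies within Rack1 at chr11:48692859-48692939 (plus strand), and Snord53, at chr17:71947874-71947951 (plus strand), shares the host Wdr43 with Snord92, at chr17:71938276-71938360 (plus strand). Both boxes in these exact letters were found in 44 of the 74 transcripts (59.5%) and in 0 of 42 annotated H/ACA transcripts, the other class of snoRNA. Box D was found in 68 and box C in 46 of the 74, with or without the other. Snord68 and Snord53 show only box C by these letters.

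The guide logic could be read directly for 18S rRNA, because the annotation holds an 18S copy (Rn18s-rs5, chr17:40157244-40159092, 1849 bases). The longest perfect antisense stretch to that copy was at least 11 bases long and ended 0 to 2 bases before a CTGA in 16 of 74 transcripts (21.6%), against 0 of 42 H/ACA transcripts. The following 5 are shown with that stretch in capitals, since they include both abundant 18S guides and members that differed between fractions.
Snord61: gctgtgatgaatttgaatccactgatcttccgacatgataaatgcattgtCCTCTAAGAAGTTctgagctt
Snord14c: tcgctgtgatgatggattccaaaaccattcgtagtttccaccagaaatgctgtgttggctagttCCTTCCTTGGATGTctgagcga
Snord59a: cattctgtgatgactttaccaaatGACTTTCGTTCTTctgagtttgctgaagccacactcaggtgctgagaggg
Snord82: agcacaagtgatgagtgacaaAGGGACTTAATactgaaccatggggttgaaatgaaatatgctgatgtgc
Snord98: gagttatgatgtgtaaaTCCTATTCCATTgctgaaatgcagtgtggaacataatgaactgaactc

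The fifth base upstream of the CTGA pairs with position 1449 of the 18S copy in Snord61, with 469 in all 3 copies of Snord14, with 1038 in Snord59a, with 1685 in Snord82 and with 874 in Snord98. Snord42a and Snord42b share their stretch and point to the same base, while Snord4a, from the same host Rpl23a, points to position 121. These matches describe letters, and methylation itself was not measured.

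Total counts ran from 1211118 to 4316748 per library, the neuron libraries being the shallowest at 1211118 to 2427384, and 220430 to 489571 counts per library fell on the 64 snoRNAs. Levels are given as counts per 1000000 of the library total (CPM). Marker miRNAs fitted the microglia label. The microglial miR-142a-3p was at 2290 to 5090 CPM in microglia, 29.7 to 296 in neurons and 7.00 to 39.6 in astrocytes, and the microglial miR-223-3p was at 280 to 614, 0.826 to 6.64 and 2.54 to 4.94. The neuronal miR-124-3p went against the neuron label, with 41.3 to 162 CPM in the neuron fraction against 677 to 2540 in astrocytes, and miR-128-3p did the same. The oligodendrocyte miR-219a-2-3p was at 383 to 693 CPM in astrocytes and at most 56.7 elsewhere, and the oligodendrocyte miR-338-3p was at 447 to 1510 against at most 30.1. The endothelial miR-126a-3p was at 165 to 441 CPM in astrocytes, 86.7 to 202 in microglia and 3.71 to 29.0 in neurons. The miR-9-5p of astrocytes and the neural lineage was at 5030 to 7940 CPM in astrocytes, 519 to 3050 in neurons and 52.7 to 218 in microglia. The blood miR-451a overlapped, at 14.5 to 53.7 CPM in astrocytes, 16.4 to 118 in microglia and 38.3 to 280 in neurons. No marker read here belongs to astrocytes alone, and markers of 3 other cell types were highest in that fraction. "Astrocytes" and "neurons" below therefore name the fractions by their labels only, and the part of other cells in the results was not tested. Among microglia, WT replicate 2 and KIN replicate 1 stood apart from the other 4, and WT replicate 1 of the neurons was the shallowest library. Xist, expressed from the inactive X chromosome of females, had 4 to 5 counts in KIN replicate 1 of each fraction and 12 to 102 in the other 15 libraries. By the study's methods the KIN and WT animals formed same-sex pairs, 2 male and 1 female, and the labels give no sex. Low Xist in KIN replicate 1 alone does not match that account, and the mismatch was not resolved. Whether the sex of the animals bears on any result was not tested beyond leaving out single libraries.

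Some snoRNA reads were counted a second time. Of the 74 transcripts, 17 lie in exons of long noncoding transcripts, up to 62 of them, among which the reads could be divided. Another 19 lie in exons of annotated transcripts of coding genes. The Gnl3 transcripts that hold Snord69 and Snord19, and the Rps3 transcript that holds Snord15b, had counts within 1% of the snoRNA's own in all 18 libraries. For Snord2 and Snord57, piRNA entries inside the snoRNA carried 88.4 to 93.2% and 87.0 to 95.2% as many counts again. Such entries belong to an earlier round of alignment. The figure varied more between libraries for Snord85 (5.1 to 27.5%) and Snord104 (4.1 to 39.0%), and was 0.3 to 2.9% for Snord17. Whether the piRNA counts are the snoRNA's own reads or further ones was not tested. The levels given below are those of the snoRNA entries alone.

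The 64 snoRNAs made up 11.82 ± 0.584% of all counts in astrocytes, 11.99 ± 1.64% in microglia and 16.21 ± 1.57% in neurons (SD, n = 6 each). Every neuron library, at 13.59 to 18.20%, was above every astrocyte library, at 11.04 to 12.71%, and the difference of 4.391 percentage points had an exact two-sided permutation p of 0.00216, the smallest that 6 against 6 allows. This test permutes libraries of both genotypes as if they came from different animals. The difference of 4.224 points between neurons and microglia had an exact permutation p of 0.00433, with the lowest neuron library (13.59%) below the highest of the microglia (14.09%), and microglia and astrocytes differed by 0.168 points (exact permutation p = 0.823). Transfer RNA fragments took 2.94 to 10.6% of the counts in neurons against 10.2 to 12.4% in astrocytes and 8.53 to 16.6% in microglia, and among Ensembl features alone the snoRNA share was 18.51% in neurons, 15.56% in astrocytes and 16.00% in microglia. Transcripts of coding genes whose exons hold a member are also part of the total. They took 5.43 to 6.13% of all counts in astrocytes, 5.02 to 7.07% in microglia and 7.06 to 9.46% in neurons. In bulk fractions of this kind, fewer cells of a type and less RNA per cell cannot be told apart.

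**Figure D1:**
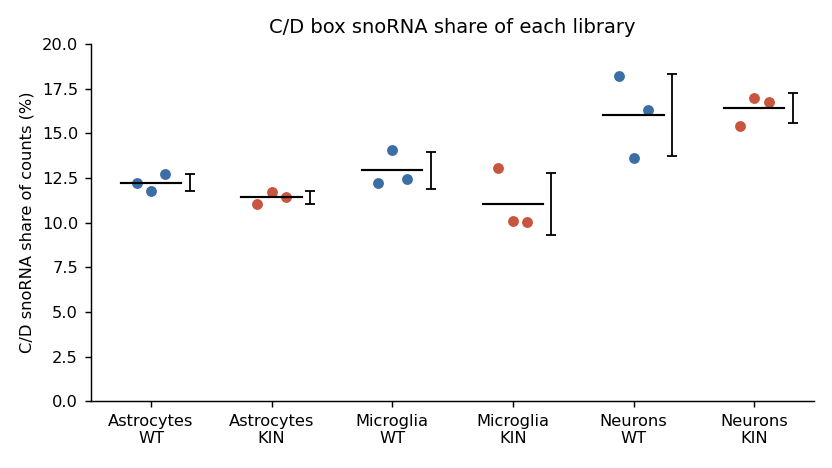
The share of all counts that fell on the 64 C/D snoRNAs (percent, y axis) is plotted for each library by fraction and genotype, WT in blue and KIN in red, with the group mean as a black line and the SD (n = 3) as a bar beside the points. The 6 neuron libraries lie at 13.59 to 18.20% and all astrocyte libraries at or below 12.71%.

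The pool was uneven. The 10 most abundant members held 47.8 to 60.4% of it in every library, and means over the 18 libraries ran from 7.46 CPM for Snord78 to 14220 CPM for Snord68. Per kilobase of mature RNA the order at the top was Snord68 (165400 CPM per kb), Snord2 (103600), Snord14 (103300, over the mean length of its 3 summed copies), Snord32a (86410), Snord83b (80130) and Snord57 (78120). Snord2 comes from an intron of the translation factor gene Eif4a2 and guides 28S methylation. Snord14 is U14, from Hspa8 and Rps13, and Snord57 comes from Nop56, the gene of a core C/D protein. Snord68 ranged from 9946 over a median of 10820 to 11880 CPM in astrocytes, from 10970 over 12170 to 14740 in microglia and from 13270 over 17410 to 34580 in neurons. The 34580 CPM belong to WT replicate 1 of the neurons, and the next neuron library was at 18470. Snord14 in that library was at 2450 CPM, below the 8991 to 11440 of the other 5 neuron libraries.

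To ask how the repertoire differs between cell fractions, all features were compared in pairs of fractions with genotype as a term, by edgeR's quasi-likelihood test with Benjamini-Hochberg adjustment. A snoRNA is said to pass, and to be higher or lower, when its adjusted p does not exceed 0.05, and to be called if its log2 fold change is also at least 1 in size. Between microglia and astrocytes 29 of 64 passed (15 higher in microglia, 14 lower) and 6 were called, that is 45.3% and 9.38%, where 47.1% and 39% of all tested features did (18.8% passed higher and 28.3% lower). Between neurons and astrocytes 50 passed (24 higher in neurons, 26 lower) and 15 were called, 78.1% and 23.4% against 51% and 44.7% of all features (21.8% passed higher and 29.2% lower). Between neurons and microglia 32 passed (12 higher in neurons, 20 lower) and 23 were called, 50.0% and 35.9% against 51.4% and 47.2% (26.6% passed higher and 24.8% lower). Median log2 fold changes of the snoRNAs were 0.118, -0.032 and -0.118, beside -0.240, -0.198 and -0.003 over all features.

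The balance of higher and lower members in neurons rested on the scaling. With library totals in place of TMM factors, 29 rose and 16 fell against astrocytes and 27 rose and 14 fell against microglia, and the median over all features moved from -0.198 to 0.112 and from -0.003 to 0.355. Members called under TMM, under library totals and when scaled to the snoRNA pool alone were all 6 between microglia and astrocytes, 6 of 15 between neurons and astrocytes (Snord123, Snord65, Snord67, Snord85, Snord88, Snord89) and 12 of 23 between neurons and microglia. In the same order of comparisons, 5 of 6, 8 of 15 and 12 of 23 were called both in WT libraries alone and in KIN libraries alone. All called members kept their sign in both genotypes, which carries little weight because they were picked from these same libraries. Over the 3 comparisons 28 of 64 were called at least once, and 11 passed in none, among them the abundant Snord2 and Snord83b.

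**Figure D2:**
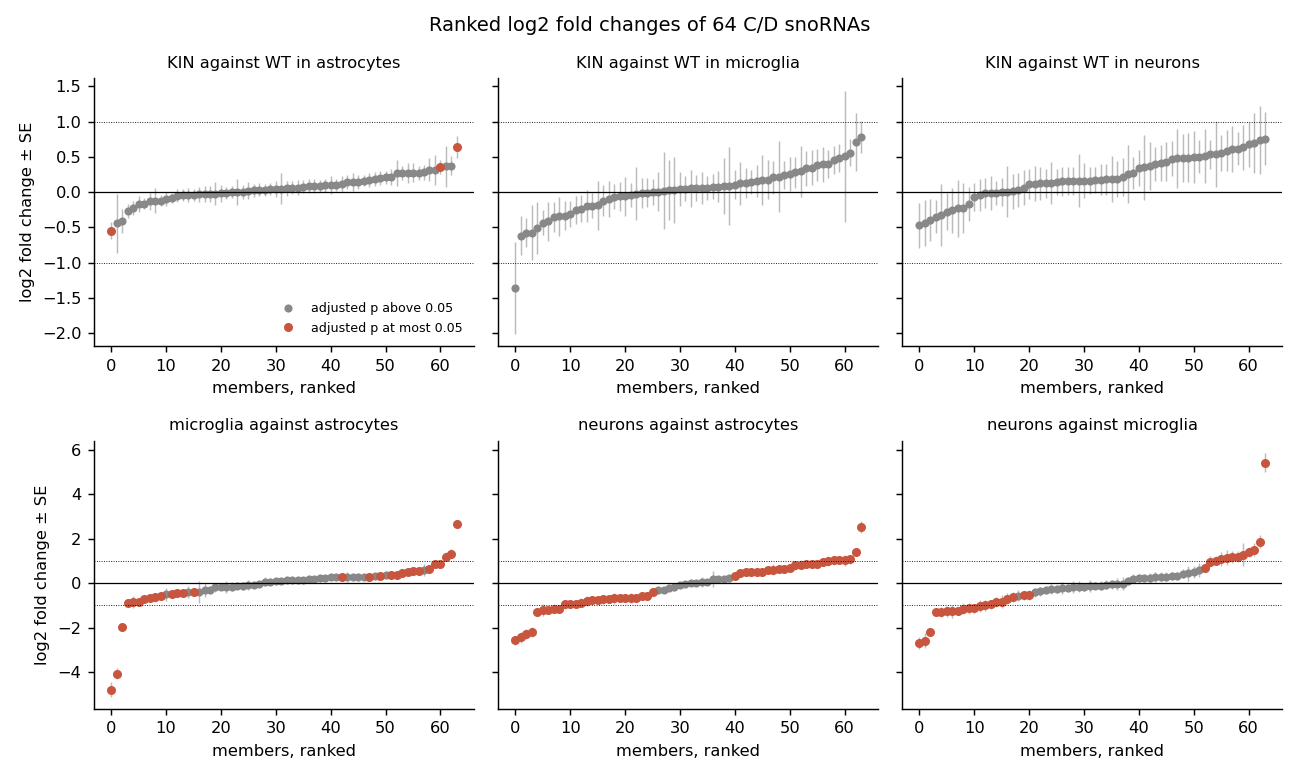
Log2 fold changes of the 64 C/D snoRNAs with SE (y axis) are ranked within each of 6 comparisons, the 3 of KIN with WT above and the 3 of fractions below, with members at an adjusted p of at most 0.05 in red, the others in grey and dotted lines at a log2 fold change of 1 and -1. The fraction comparisons span -4.78 to 5.41 with 29, 50 and 32 members in red, and the genotype comparisons have 3, 0 and 0.

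Snord17 was high in microglia. This long C/D snoRNA, a 28S guide, was at 4297 to 6174 CPM in microglia (median 5244), against 806 to 909 in astrocytes (median 836) and 1073 to 1838 in neurons (median 1463). All 6 microglia libraries were above the other 12. Its log2 fold change was 2.68 ± 0.11 (SE) over astrocytes, 6.41-fold (edgeR adjusted p = 4.16e-12), and neurons were 4.57-fold lower than microglia (adjusted p = 2.95e-08).

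Snord107 and Snord123 were barely counted in microglia. Snord107, which has no known rRNA target and shares the imprinted Snrpn locus with the excluded arrays, gave 2 to 23 counts per microglia library (0.463 to 6.27 CPM, median 1.84). It was at 57.4 to 98.7 CPM in astrocytes (median 72.2) and 99.2 to 254 in neurons (median 111). Microglia were 27.5-fold below astrocytes (log2 -4.78 ± 0.32, adjusted p = 1.78e-09) and neurons 42.7-fold above microglia (log2 5.41 ± 0.43, adjusted p = 1.33e-08). Snord123 was at 4.13 to 9.79 CPM in microglia (median 5.56), 83.0 to 133 in astrocytes (median 103) and 23.5 to 34.8 in neurons (median 29.2), so that the 3 fractions did not overlap. It was 16.8-fold lower in microglia than in astrocytes (adjusted p = 1.12e-09) and 4.54-fold lower in neurons than in astrocytes (adjusted p = 3.47e-07).

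Snord65, an 18S guide, rose in the order astrocytes, microglia, neurons. It was at 23.4 to 28.0 CPM in astrocytes (median 25.5), 44.8 to 88.9 in microglia (median 61.9) and 127 to 305 in neurons (median 154), without overlap, and was 2.51-fold higher in microglia and 5.79-fold higher in neurons than in astrocytes (adjusted p = 2.68e-05 and 4.11e-07). It lies in exons of 5 long noncoding transcripts that together carry 683800 counts, against 4044 on Snord65 itself, so its absolute level is uncertain. Snord93 was higher than in astrocytes in both other fractions, 2.28-fold in microglia and 2.05-fold in neurons. Its levels were 8.54 to 15.9 CPM in astrocytes, 23.8 to 36.4 in microglia and 14.0 to 56.3 in neurons. The neuron call of Snord93 was lost with no filter on low counts and in WT libraries alone (adjusted p up to 0.227 over its alternatives).

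Neurons were set apart downwards by Snord85 and Snord89, of which neither is on the target lists used here. Snord85 was at 204 to 733 CPM in neurons (median 498), 1753 to 2582 in astrocytes (median 2056) and 1860 to 2781 in microglia (median 2635). It was 5.40-fold lower than in astrocytes (log2 -2.43 ± 0.24, adjusted p = 2.29e-07) and 6.43-fold lower than in microglia. Snord89 was at 48.7 to 179 CPM in neurons (median 124), 414 to 500.0 in astrocytes (median 473) and 347 to 789 in microglia (median 466), 4.84-fold and 6.01-fold lower (adjusted p = 2.51e-07 and 5.76e-06). Upwards, Snord88, a 28S guide, was at 2459 to 3319 CPM in neurons (median 2853), against 787 to 986 and 949 to 1259, 2.67-fold above astrocytes (adjusted p = 5.07e-07) and 2.01-fold above microglia.

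Among members higher in neurons than in microglia, the largest log2 fold changes after Snord107 and Snord123 belonged to Snord1, Snord82 and Snord96a. Snord1, a 28S guide summed over 3 copies in Snhg16, was at 310 to 420 CPM in neurons (median 367), 55.9 to 153 in microglia (median 89.2) and 161 to 208 in astrocytes (median 174), 2.84-fold above microglia (adjusted p = 0.000428). Snord96a, from the gene of the ribosome-bound scaffold Rack1, was at 7643 to 10910 CPM in neurons (median 9737) and 3632 to 4302 in astrocytes (median 3937). In microglia it ran from 782 over a median of 1121 to 6848, so that its 2.42-fold difference from neurons only just passed (adjusted p = 0.0452) and was kept in 13 of 23 alternatives. Snord32a, from Rpl13a and known from the response to lipid stress, was 2.04-fold above astrocytes and 2.21-fold above microglia, at 9904 to 17400 CPM in neurons. On the lower side, Snord4a and Snord69 were 2.49-fold and 2.43-fold below microglia (adjusted p = 5.89e-06 and 0.000145), and Snord90, from Rc3h2, was 2.43-fold below astrocytes (adjusted p = 1.62e-06).

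Smaller differences between the glial fractions involved Snord15 and Snord72, 1.84-fold and 1.80-fold higher in microglia, and Snord59a, an 18S guide from the ATP synthase gene Atp5f1b, 1.87-fold lower. Snord59a was at 2313 to 2863 CPM in astrocytes (median 2527) and 1159 to 1489 in microglia (median 1293), without overlap (adjusted p = 3.4e-06). Snord15, summed over 2 copies in Rps3, overlapped, at 1404 to 2095 CPM in astrocytes and 1810 to 4514 in microglia, and did not pass in KIN libraries alone. Snord1 was 1.80-fold lower in microglia than in astrocytes and also failed in KIN libraries alone (adjusted p up to 0.146 over its alternatives).

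**Figure D3:**
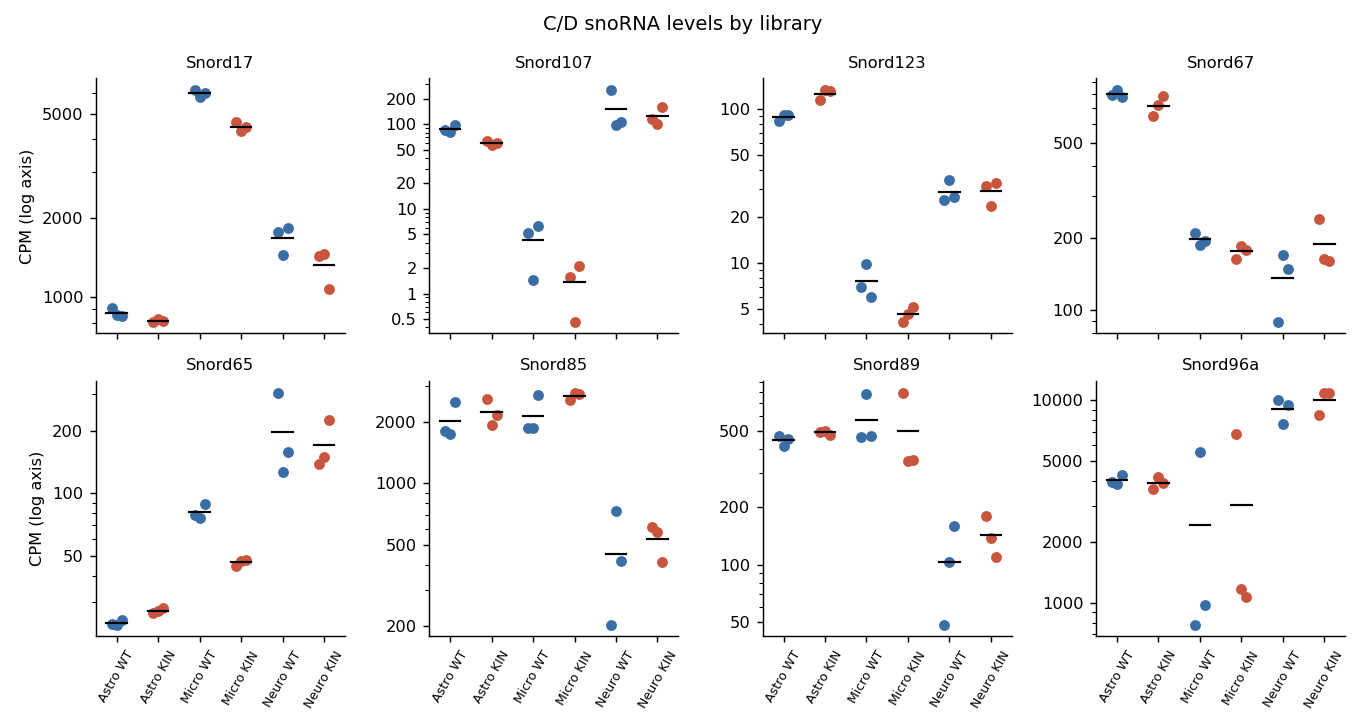
Levels of 8 C/D snoRNAs in CPM (y axis, log scale) are shown for each library by fraction and genotype, WT in blue and KIN in red, with the group mean as a line. Snord17 lies at 4297 to 6174 in microglia and at most 1838 elsewhere, Snord107 at or below 6.27 in microglia, and Snord96a is split among microglia with 2 libraries at 5535 and 6848.

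Guides of U6, the catalytic RNA of the spliceosome, were read from a list of 5, of which 3 were present. All 3 were lower in neurons than in astrocytes (median log2 -1.219), where 29.2% of all features were lower, and all 3 stayed so with library totals. Against microglia all 3 were also lower (median -0.830, 24.8% of all features), but with library totals only Snord8 passed. Snord67 was at 649 to 834 CPM in astrocytes (median 783), 164 to 211 in microglia (median 186) and 89.2 to 242 in neurons (median 162). It was 3.93-fold lower in microglia and 5.96-fold lower in neurons than in astrocytes (adjusted p = 7.73e-10 and 1.42e-08). Microglia and neurons overlapped, and their difference in Snord67 (log2 -0.62, adjusted p = 0.0302) did not pass with library totals (log2 -0.22, adjusted p = 0.446) or in either genotype alone (0.152 in WT, 0.24 in KIN). Snord7 was 2.33-fold and Snord8 1.91-fold lower in neurons than in astrocytes. In WT libraries alone neither Snord7 (adjusted p = 0.051) nor Snord8 (0.0586) passed. Between microglia and astrocytes Snord67 and Snord7 were lower and Snord8 did not pass (log2 0.075).

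Of the 5 snoRNAs of precursor processing 4 were present. U8, Snord118, required for maturation of 5.8S and 28S rRNA, was at 151 to 262 CPM in astrocytes (median 208), 226 to 277 in microglia (median 251) and 378 to 796 in neurons (median 505). It was 2.10-fold higher in neurons than in astrocytes (adjusted p = 0.000243) and 1.62-fold higher than in microglia (adjusted p = 0.00968). In WT libraries alone its difference from astrocytes was 0.636 on the log2 scale with an adjusted p of 0.0963. In KIN libraries alone it was 1.699 (edgeR adjusted p = 1.37e-09), so that the difference rested mostly on the KIN libraries. The other 3 act on the 18S side of the precursor, and their levels in neurons and astrocytes overlapped. U14, Snord14, was at 9820 to 11480 CPM in astrocytes (median 10630) and 2450 to 11440 in neurons (median 9485). U13, Snord13, was at 626 to 757 CPM in astrocytes and 404 to 664 in neurons, and U22, Snord22, at 110.0 to 143 and 35.5 to 133. For all 3 the lowest neuron library was WT replicate 1. Under TMM scaling they were lower in neurons, Snord14 by 1.57-fold (adjusted p = 0.0217), Snord13 by 1.57-fold (0.00152) and Snord22 by 1.61-fold (0.0265). With library totals none of the 3 passed, at log2 -0.32, -0.32 and -0.35 (adjusted p = 0.267, 0.0779 and 0.249). Without neuron WT replicate 1 the difference in Snord14 was log2 -0.35 (adjusted p = 0.00887), that in Snord13 -0.49 (0.00603), and that in Snord22 no longer passed (-0.42, adjusted p = 0.0889). Snord14 and Snord22 also failed with DESeq2 (adjusted p = 0.0962 and 0.067), without neuron KIN replicate 3 (0.118 and 0.139) and without neuron KIN replicate 2 (0.0531 and 0.0504), and Snord22 without astrocyte KIN replicate 2 (0.0531). U14 and U22 moved in opposite directions between microglia and astrocytes, 1.37-fold lower and 1.47-fold higher.

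On the target lists used here, guides of 28S outnumbered those of 18S. The 18S list is not complete by the antisense match above. Snord93, Snord19 and Snord14 met that match and are not on it, and Snord93 was higher in both other fractions than in astrocytes. The counts that follow are for the listed members only. Of 26 members that guide 28S, 13 were higher and 7 lower in neurons than in astrocytes (median log2 0.270), and of 14 that guide 18S, 4 were higher and 6 lower (median -0.256), where 21.8% of all features were higher and 29.2% lower. With library totals these counts were 16 and 3 for 28S (median 0.593) and 4 and 4 for 18S (median 0.071). In microglia 10 of the 28S guides were higher and 4 lower than in astrocytes (median 0.270), and 1 of the 18S guides was higher and 5 lower (median -0.012), where 18.8% of all features were higher and 28.3% lower. Among the abundant 18S guides, Snord61, from the X-linked Rbmx, was at 5123 to 6539 CPM in astrocytes, 2334 to 3932 in microglia and 1878 to 4881 in neurons, 1.78-fold and 1.89-fold below astrocytes. Snord57 and Snord82, from Nop56 and the nucleolin gene Ncl, went the other way in neurons, 1.80-fold and 1.81-fold above astrocytes. Snord82 was at 4404 to 10130 CPM in neurons, 2487 to 2983 in astrocytes and 1328 to 2147 in microglia. Of the 28S guides, Snord55 was 1.75-fold higher and Snord38a 1.51-fold lower in neurons than in astrocytes, while Snord2 (log2 -0.006) and Snord21 (0.191) did not pass. In CPM Snord38a overlapped, at 3305 to 3924 in astrocytes and 1751 to 3864 in neurons, where the lowest library was WT replicate 1. No test compared the 2 sets of guides.

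Hosts were also examined. Members from ribosomal protein genes, 15 in all, had 7 higher and 0 lower in microglia than in astrocytes, with a median log2 of 0.268, beside 3 higher and 8 lower of 30 from other coding genes and 5 higher and 5 lower of 18 from noncoding hosts. Over all features 18.8% were higher and 28.3% lower, and no test compared the classes of host. The Gas5 locus gave 3 members, of which Snord47 was lower in microglia and in neurons than in astrocytes (1.36-fold and 1.59-fold), while Snord80 and Snord78 passed in neither. From Snhg1 only Snord22 was among the members. Fragments of the host transcripts themselves, counted from transcripts whose exons hold no small RNA, were too few to follow for most hosts. Gas5, for one, had 0 to 3 counts in each astrocyte library, 0 to 1 in microglia and 3 to 8 in neurons. Such a transcript enters a test only through the fraction where it is high, and no count over the hosts is given. Of 12 genes for C/D proteins and assembly factors only Nop58 could be tested, with 2 to 12 counts per library in astrocytes, 0 to 3 in microglia and 2 to 14 in neurons. It too entered the comparisons with microglia only through the other fraction, so its differences from microglia are not read as a result.

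Members cut from a single host offer a comparison in which the host's transcription is shared. There were 16 such pairs from 10 hosts. The members from Gas5 and 2410006H16Rik lie in exons of 4 to 62 long noncoding transcripts. Their reads could be divided among these, so the ratios of those pairs are uncertain. The ratio of counts within a pair did not overlap between fractions for 4 of 16 pairs between microglia and astrocytes, 8 of 16 between neurons and astrocytes and 9 of 16 between neurons and microglia, where 43.4%, 61.2% and 50.2% of all 2689 pairs of different members did so. The pairs that follow were chosen after their values were seen. Snord53 over Snord92, both from Wdr43, was 0.391 to 0.502 in astrocytes and 0.336 to 0.485 in microglia but 1.44 to 2.78 in neurons. Snord53 was the higher of the pair in every neuron library and the lower one in all 12 glial libraries.

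The same turn was seen in Rpl23a. Snord42b over Snord4a was 0.577 to 0.630 in astrocytes, 0.504 to 0.580 in microglia and 1.61 to 2.37 in neurons. Snord42a over Snord4a, whose guide stretch toward 18S is the one of Snord42b, stayed below 1 in all libraries, at 0.786 to 0.868, 0.527 to 0.754 and 0.709 to 0.877. In Nop58, Snord11 over Snord70 was 2.42 to 3.00 in microglia, above the 1.35 to 1.68 of astrocytes and the 1.21 to 1.81 of neurons. In Gnl3, Snord19 over Snord69 overlapped in all 3 fractions, at 0.258 to 0.303, 0.204 to 0.327 and 0.227 to 0.377.

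**Figure D4:**
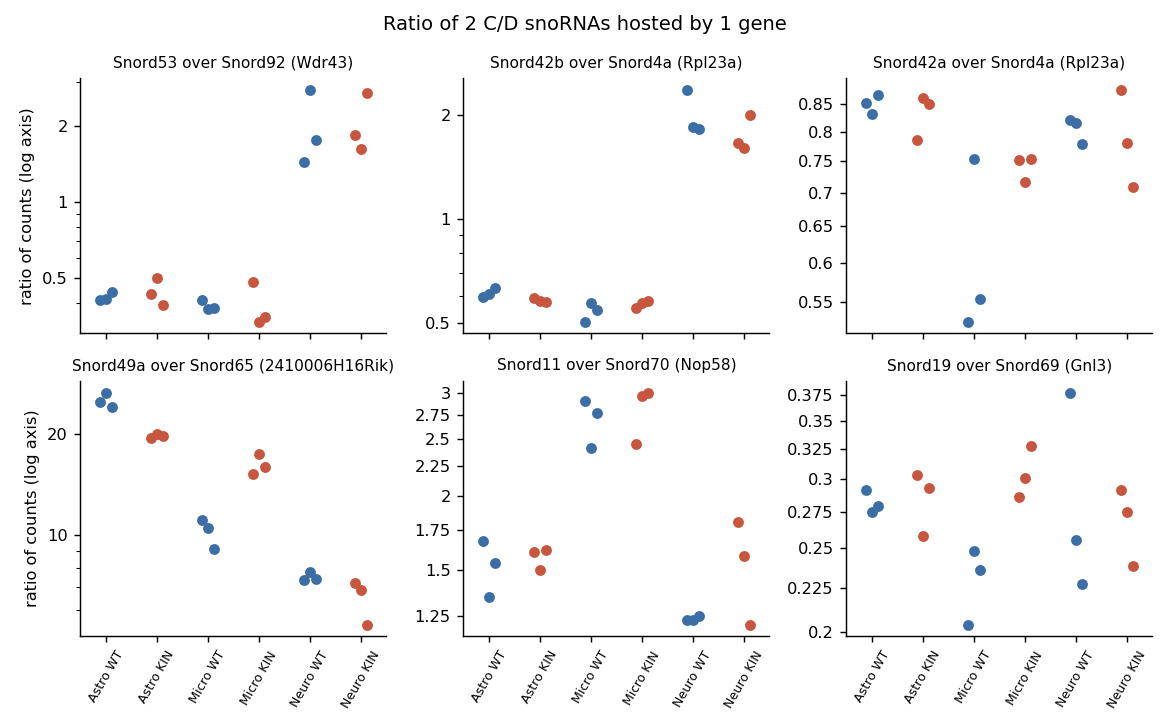
The ratio of counts of 2 C/D snoRNAs from 1 host gene (y axis, log scale) is plotted per library for 6 pairs, by fraction and genotype, WT in blue and KIN in red. Snord53 over Snord92 and Snord42b over Snord4a are above 1 in all neuron libraries and below 1 in all glial ones, and Snord19 over Snord69 overlaps among the fractions.

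The comparison of KIN with WT asked whether the mutation alters the snoRNA pool within a fraction. Markers differed with genotype in astrocytes. There the microglial miR-142a-3p was at 7.00, 9.04 and 7.59 CPM in WT and 24.7, 39.6 and 20.4 in KIN. The microglial miR-223-3p and the oligodendrocyte miR-219a-2-3p were also higher in KIN astrocytes without overlap, and the other markers overlapped. What these differences mean for the snoRNAs was not tested. The snoRNA share was 11.41 ± 0.348% in KIN and 12.23 ± 0.476% in WT astrocytes (SD, n = 3 each), without overlap and at the smallest exact permutation p that 3 against 3 allows (0.1). It was 11.05 ± 1.74% against 12.93 ± 1.02% in microglia (exact permutation p = 0.3) and 16.40 ± 0.841% against 16.03 ± 2.31% in neurons (exact permutation p = 0.8). Single members passed in astrocytes only, with 3 of 64 (4.69%, against 11.8% of all features), 2 higher and 1 lower (4.93% and 6.88% of all features), and 0 called (8.24% of all features). The balance turned with the scaling, since 1 was higher and 6 lower with library totals. None passed in microglia, where 4.86% of all features passed and 4.4% were called, or in neurons, where 0% of all features passed. DESeq2 also gave 0 in both, and 6 members in microglia and 2 in neurons had an unadjusted p of at most 0.05.

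Snord118 (U8) was lower in KIN astrocytes. The WT libraries were at 262, 261 and 246 CPM and the KIN libraries at 161, 151 and 170, with log2 -0.54 ± 0.12 (1.46-fold, adjusted p = 0.0266). In microglia the order was the other way, at 226, 227 and 232 CPM in WT against 273, 269 and 277 in KIN, but this did not pass (log2 0.48 ± 0.19, adjusted p = 0.158). In neurons WT was at 378, 484 and 522 and KIN at 796, 580 and 487, which overlapped. The microglial minus the astrocytic effect was 1.02 ± 0.25 with an adjusted p of 0.0825 by edgeR, and it was the member with the smallest p. That difference passed with library totals (0.0323), with DESeq2 (0.00146) and without microglia WT replicate 2 (0.00344). Over all 20 alternatives it lay between 0.760 and 1.155, with adjusted p from 0.000876 to 1.0. No member passed this test of a difference, which 0.312% of all features did.

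Snord123 was higher in KIN astrocytes, with 83.0, 91.4 and 91.1 CPM in WT and 113.7, 133 and 131 in KIN (log2 0.64 ± 0.16, 1.56-fold, adjusted p = 0.0354). Snord35, a 28S guide summed over 2 copies, was at 418, 379 and 423 CPM in WT and 472, 488 and 466 in KIN (log2 0.36 ± 0.10, 1.28-fold, adjusted p = 0.0467). For all 3 members the groups did not overlap in CPM, as for 25 of 64 members in this comparison (36.7% of all features), 7 of them higher in KIN and 18 lower (10.8% and 25.8% of all features). Each of the 3 failed to pass when any 1 of 5 libraries was left out, with adjusted p up to 0.105 for Snord118, 0.123 for Snord123 and 0.151 for Snord35, and passed without WT replicate 2. With no filter on low counts only Snord123 passed, the adjusted p being 0.635 for Snord118 (log2 -0.33) and 0.258 for Snord35. Snord35 also failed with library totals (adjusted p = 0.109), and 0 members passed when all 18 libraries were fitted at once.

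**Figure D5:**
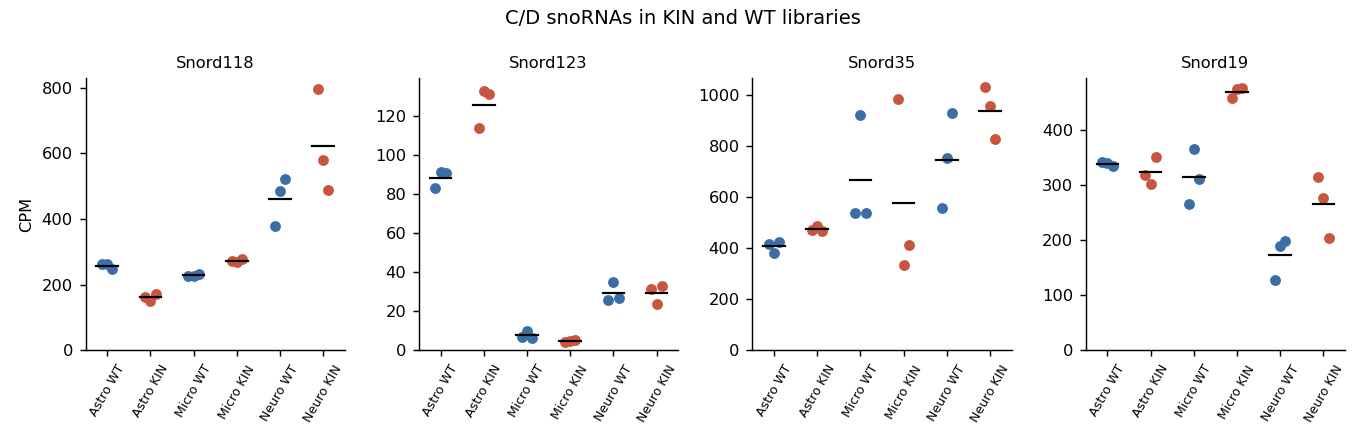
Levels in CPM (y axis, linear from 0) of Snord118, Snord123, Snord35 and Snord19 are shown per library by fraction and genotype, WT in blue and KIN in red, with the group mean as a line. Snord118 lies at 151 to 170 in KIN and 246 to 262 in WT astrocytes, and Snord19 at 458 to 476 in KIN and 266 to 365 in WT microglia.

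In microglia the member with the smallest p was Snord19, from the nucleostemin gene Gnl3, at 266, 365 and 312 CPM in WT and 458, 474 and 476 in KIN (log2 0.79 ± 0.23, adjusted p = 0.0782). Snord65 was at 78.3, 76.0 and 88.9 in WT and 44.8, 47.0 and 47.7 in KIN (log2 -0.57 ± 0.21, adjusted p = 0.129). Both comparisons were free of overlap, as were those of 26 of 64 members in levels (26.6% of all features), 23 of them lower in KIN (18.5% of all features). Snord85 overlapped (log2 0.56 ± 0.19, adjusted p = 0.110). The TMM-scaled log2 fold changes, in contrast, had 38 members above and 26 below 0, and tRNA fragments took 14.0 to 16.6% of the counts in KIN and 8.53 to 11.3% in WT microglia.

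The 2 microglia libraries that stood apart widened the spread within their groups. Snord96a, from Rack1, was at 5535 CPM in WT replicate 2 and 6848 in KIN replicate 1, against 782 to 1176 in the other 4. By the ratio of the mean CPM of this pair to that of the other 4, Snord32a from Rpl13a was 2.60-fold higher, Snord91a 2.51-fold, Snord87 2.33-fold and Snord35 2.09-fold, and for each of them both libraries lay above all of the other 4. Both libraries lay above the other 4 for 24 of 64 members and below for 1 (39.1%), while of 4935 features tested 295 were above and 1256 below (31.4%). Their share of counts on protein-coding transcripts was 3.05 and 2.95%, against 4.04 to 4.22% in the other 4. Left out together, which was decided after seeing the data, 28 of 64 members passed in microglia, 17 higher and 11 lower in KIN, where 33% of all features did. Among them Snord19 was higher (log2 1.02 ± 0.11, adjusted p = 0.0001), as was Snord118 (0.56 ± 0.11, adjusted p = 0.00302), and Snord15 was lower (-0.93 ± 0.09, adjusted p = 3.9e-05). In the test of the difference from astrocytes 9 members passed without this pair of libraries (7.82% of all features). With 2 libraries left in each microglia group these p-values rest on a smaller spread, and what sets the pair of libraries apart was not tested.

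In neurons the smallest p-values belonged to Snord37, from Eef2, and Snord98, from Ccar1, both with an adjusted p of 0.916. Snord37 was at 2065, 2731 and 3346 CPM in WT and 3903, 3867 and 3972 in KIN (log2 0.54 ± 0.21), and Snord98 at 686, 1044 and 1125 against 1494, 1416 and 1437 (log2 0.62 ± 0.24). Of the 64 members 12 were higher without overlap and 0 lower (4.75% of all features were higher, 5.48% lower). WT replicate 1 was the lowest neuron library for both of these snoRNAs and has the lowest depth of all 18. In the neuron libraries miR-9-5p was at 519, 1635 and 958 CPM in WT and 3052, 1668 and 2368 in KIN. Its levels in WT and KIN neurons did not overlap, while those of the other markers did. What this means for the snoRNAs was not tested.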

How the data were processed

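Small RNA was sequenced by the study with a kit that adds molecular identifiers. Per the labels, the authors used Cutadapt 4.6, Bowtie2 2.4.4, HTSeq 2.0.2 and DESeq2 on mm39. Reads were aligned locally in successive rounds (miRNA, tRNA, piRNA, noncoding, coding transcripts) and counted without strand or mapping-quality limit. The deposited counts are raw whole-number reads per feature, with no collapsing by identifier described. The authors' own fold changes and p-values were not used, nor were 36 further per-library columns.

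Members were 64 summed C/D snoRNAs, and levels are CPM of library totals. Features that reached 5 counts in 2 or more libraries of a fit were tested with edgeR 4.0.16 (R 4.3.3, limma 3.58.1) under TMM scaling, Benjamini-Hochberg adjusted over all features: KIN against WT within a fraction (6 libraries), fractions with genotype as a term (12 libraries), and the interaction. The code was tested on simulated data. Shares were compared by exact permutation. Sequences, hosts and coordinates came from GENCODE vM39 (GRCm39).

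The members and lists were chosen with earlier results of these data known. Named members were the 10 of highest mean CPM, the processing and U6 lists, up to 5 passing members in each direction per comparison (where fewer than 3 passed, the 3 of smallest p), and up to 4 abundant examples of the other lists. A few genes and the results that need them are not reported here. Members outside these groups were named after their values were seen. Alternatives were library totals, scaling to the snoRNA pool, DESeq2 1.42.0, no filter, a replicate block, 1 fit of 18 libraries, single genotypes, single transcripts, and leaving out each library. Leaving out transcripts that hold a member, or both outlying microglia libraries, was added after seeing the data.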

Additional observations from a re-analysis of the deposited data

How the results depend on the processing

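Over 42 results on named members and 863 alternatives in all, 814 kept direction and side of the threshold, 38 no longer passed, 11 newly passed and 0 reversed. Passing members between KIN and WT astrocytes numbered 3, and 7 with library totals, 5 with DESeq2, 1 (Snord123) with no filter and 0 in 1 fit of 18 libraries. In microglia the 0 became 2 with library totals, 1 when scaled to the snoRNA pool, 1 with no filter and 28 without both outlying libraries. For the difference of these effects the 0 became 1 with library totals, 1 with DESeq2 and 9 without both outlying libraries (7.82% of all features). Microglia against astrocytes gave 29, but 16 with no filter, 19 in 1 fit of 18 libraries and 17 in WT alone. Neurons against astrocytes gave 50, but 31 with no filter and 27 in WT alone, and neurons against microglia 32, but 21 in WT alone. The cause of these shifts was not tested, beyond the fewer libraries of the WT fits.

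Leaving out 1 library gave 0 to 7 passing members in astrocytes (7 without WT replicate 2), 0 to 3 in microglia (3 without WT replicate 2), 0 to 0 in neurons, 23 to 36 for microglia against astrocytes, 45 to 50 for neurons against astrocytes, 28 to 34 for neurons against microglia and 0 to 4 for the difference of effects. The KIN minus WT share ranged from -1.058 to -0.581 points in astrocytes, -2.882 to -1.292 in microglia and -0.844 to 1.459 in neurons, turning negative without neuron WT replicate 2 (-0.844). The share of microglia minus astrocytes ranged from -0.253 to 0.563, turning negative without microglia WT replicate 2 (-0.253) or KIN replicate 1 (-0.047). Neurons exceeded astrocytes by 3.994 to 4.915 points and microglia by 3.827 to 4.748.

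Correlations gave no clear pairing by replicate number. Same-numbered libraries correlated at -0.18 to 0.31, over 0.1 in 7 of 27 pairs, and 9 of 27 correlated best with their own number. Such weak correlations cannot show that equal numbers mark different brains. Xist was at 4 to 5 counts in KIN replicate 1 of each fraction and higher in all other libraries. With the replicate block, 2, 0 and 0 members passed between KIN and WT in astrocytes, microglia and neurons, 26, 47 and 31 between fractions and 0 for the difference, so that no count moved by more than 1.5 times. Snord35 did not pass under the block (adjusted p = 0.0551). Depth limits Snord107 and Snord123 in microglia, with 2 to 23 and 13 to 34 counts per library.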
